A study of Mus musculus with 10 samples.

Results

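Erg, Fli1, Ets1, Elk3, Etv6, Tal1, Gata2, Sox7, Sox18 and Mef2c are 10 transcription factor genes known for their part in endothelial identity, and they were measured in sorted mouse lung endothelial cells by RNA sequencing. They were taken by name, as the rows of the count table whose Ensembl identifier carries 1 of these symbols. Each matched 1 of the 55385 identifiers. The rule used none of their values, but the set was chosen with earlier results of these data known. All 10 libraries came from mice of the strain Cdh5.iCreERT2xTnfsf10Lox/Lox, in which both alleles of Tnfsf10 (encoding TRAIL, a death ligand of the TNF family) carry loxP sites. All were Tnfsf10 L/L. The group labelled EC-TRAIL KO (5 libraries) was Cdh5.Cre Tg/W and the control group (5 libraries) was Cdh5.Cre W/W. In this line the endothelial Cdh5 promoter drives a Cre recombinase that is active only under tamoxifen, so the libraries labelled EC-TRAIL KO differ from controls by the Cre transgene as well as by the deletion. Mice were 8 to 14 weeks old, and the protocol gives tamoxifen at 1 mg per mouse per day for 5 or 10 days without saying which libraries received which course. Nothing in the labels ties a library to a mouse of its own, and the p-values therefore rest on a spread among libraries that may be technical. The design text speaks of 4 transgenic animals while 5 such libraries are labelled, and all 5 were used.

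These factors read the genome through different DNA-binding folds and are known to act in shared enhancers of vascular genes. ETS proteins bind a GGAA core, and Erg and Fli1 are close relatives that maintain vascular gene expression and junctions in adult endothelium. Ets1 is known from angiogenesis, while Elk3 and Etv6 act mainly as repressors. Tal1, a basic helix-loop-helix factor of E-box sites, and Gata2, which binds GATA sites, are shared between blood and endothelium. Sox7 and Sox18 are SoxF proteins with roles in arterial and lymphatic development, and Mef2c is a MADS-box factor of vessel development and sprouting. Several of them are also made in leukocytes, megakaryocytes or mast cells, so markers of these cells were measured beside them.

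Promoter windows from RefSeq on GRCm38.p6, covering 250 bases before to 50 bases after a start site, were held for 6 of the 10 genes (Tal1, Gata2, Etv6, Elk3, Mef2c and Erg, 12 windows in all), and Fli1, Ets1, Sox7 and Sox18 are named only. The 4 windows shown belong to the gene least variable between libraries (Erg), to the gene that varied with the SoxF pair (Tal1) and to Elk3 and Etv6, which varied with each other. Capitals mark matches, on either strand, to 4 motifs, which do not overlap in these windows. The letters searched for ETS proteins were GGAAG. Those for GATA factors were AGATAA. For the E-box of Tal1 and other helix-loop-helix proteins CAGNTG was searched. The SOX letters were AACAAT. The windows are Erg at chr16:95459299-95459598 (minus strand), Tal1 at chr4:115056176-115056475 (plus strand), Elk3 at chr10:93311110-93311409 (minus strand) and Etv6 at chr6:134035450-134035749 (plus strand).
Erg: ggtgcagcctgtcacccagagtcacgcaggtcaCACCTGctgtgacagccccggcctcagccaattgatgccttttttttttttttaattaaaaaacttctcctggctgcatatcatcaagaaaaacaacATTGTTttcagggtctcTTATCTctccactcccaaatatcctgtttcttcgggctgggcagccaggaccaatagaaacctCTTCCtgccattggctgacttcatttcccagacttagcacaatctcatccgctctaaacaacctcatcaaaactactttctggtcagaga
Tal1: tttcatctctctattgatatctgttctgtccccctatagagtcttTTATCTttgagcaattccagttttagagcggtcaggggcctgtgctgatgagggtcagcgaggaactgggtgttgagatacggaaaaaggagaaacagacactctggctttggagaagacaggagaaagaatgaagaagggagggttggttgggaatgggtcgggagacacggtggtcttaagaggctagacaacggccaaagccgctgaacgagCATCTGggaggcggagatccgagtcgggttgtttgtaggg
Elk3: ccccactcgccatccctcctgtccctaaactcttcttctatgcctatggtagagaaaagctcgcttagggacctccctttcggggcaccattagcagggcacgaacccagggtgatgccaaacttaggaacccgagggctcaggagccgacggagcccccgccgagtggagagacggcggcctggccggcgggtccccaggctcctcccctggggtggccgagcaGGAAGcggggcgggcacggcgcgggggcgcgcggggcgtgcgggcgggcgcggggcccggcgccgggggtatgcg
Etv6: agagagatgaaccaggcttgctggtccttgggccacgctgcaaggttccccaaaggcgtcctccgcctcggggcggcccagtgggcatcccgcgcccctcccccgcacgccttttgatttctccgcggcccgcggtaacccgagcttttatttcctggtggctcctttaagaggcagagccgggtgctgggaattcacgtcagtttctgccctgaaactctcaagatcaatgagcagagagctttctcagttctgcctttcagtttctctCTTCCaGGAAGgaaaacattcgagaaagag
The Erg window shown, the most 3′ of its 3 annotated starts, held 1 match to each of the 4 motifs. The Erg window at chr16:95530316-95530615 held 1 ETS match only, and that at chr16:95586544-95586843 held no match. The first Tal1 window held a GATA match and an E-box match, Elk3 held 1 ETS match and Etv6 held 2 ETS matches beside each other. The second Tal1 window, not shown, held 2 ETS matches and no GATA or E-box match. These are descriptions of letters and common ones: among 32851 windows of the same length, 71.4% held the ETS motif, 51.4% the E-box, 11.2% the GATA motif and 10.7% the SOX motif. The longer ETS motif CCGGAAG, which contains GGAAG, was present in 8.86% of all windows and was not matched in the 12 windows of these genes.

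None of the 10 factor genes passed the comparison of EC-TRAIL KO with control (edgeR quasi-likelihood test, Benjamini-Hochberg adjusted p = 0.997 for each). Among all 17997 tested genes 79 passed, 0.439%, all of them higher in EC-TRAIL KO. At an unadjusted p under 0.05 there were 923 tested genes (5.13%; 3.81% higher and 1.32% lower in EC-TRAIL KO) and 0 of the 10 factors. Among the factors 6 had a log2 fold change above 0 and 4 below 0, with a median of 0.03 against -0.0085 over all tested genes. The values of the groups overlapped for all 10 genes, while 1.64% of tested genes had groups that did not overlap (1.38% higher and 0.261% lower in EC-TRAIL KO). No factor passed in any of the 20 alternative settings, DESeq2 and limma-voom among them.

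Tnfsf10 itself checks the labels. It ranged from 80.99 to 318.0 CPM (counts scaled to library size) in EC-TRAIL KO and from 298.3 to 373.6 CPM in controls, and the log2 fold change was -0.90 ± 0.276 (SE), with an edgeR adjusted p = 0.425. The library labelled EC-TRAIL KO replicate 2 held the 318.0 CPM, inside the control range, and the other 4 lay below every control. Without that library no factor gene passed either. Library totals were 29806083 to 34702571 expected counts in EC-TRAIL KO and 34435835 to 56897822 in controls (exact two-sided permutation p = 0.0159). Each factor gene had at least 1562 counts in every library, so counting error was small beside the differences between libraries.

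**Figure D1:**
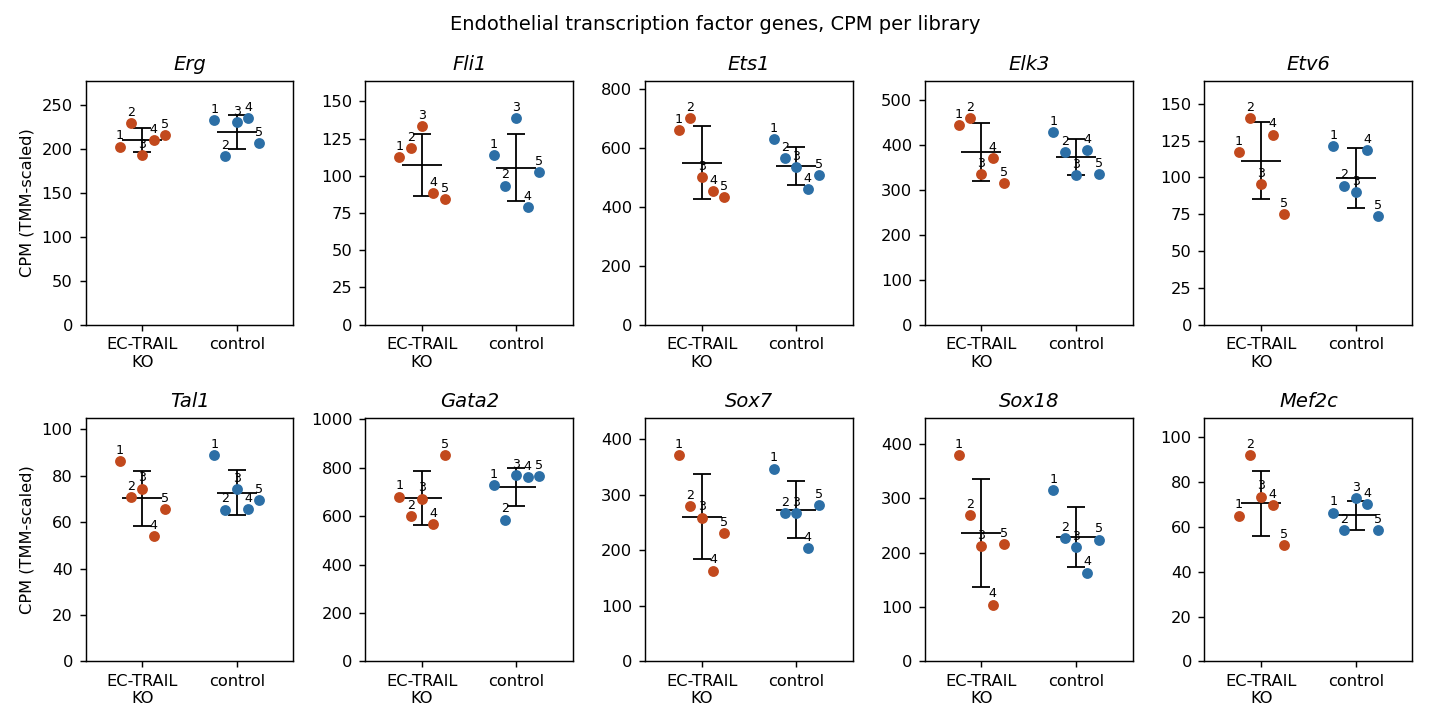
TMM-scaled CPM of the 10 factor genes in each library, with EC-TRAIL KO left and control right; numbers are replicate numbers, and bars give the mean ± SD of 5 libraries. The groups overlap in every panel, and the spread is widest for Sox18, from 104.4 CPM in EC-TRAIL KO replicate 4 to 379.9 CPM in EC-TRAIL KO replicate 1.

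Erg (chromosome 16, 95359169 to 95586593, minus strand, GRCm38) was the steadiest of the factors. It had 202.4, 228.7, 192.3, 209.7 and 215.4 CPM in EC-TRAIL KO replicates 1 to 5, and 232.0, 191.5, 230.3, 234.6 and 206.4 CPM in control replicates 1 to 5. The highest library was only 1.23-fold above the lowest, and both of those were controls. The log2 fold change was -0.06 (SE 0.0762, 95% interval -0.23 to 0.10), so the interval spans a fold of 0.854 to 1.07. Of all tested genes, 15.2% had a smaller SD of log2 CPM over the 10 libraries. Fli1, its near relative (chromosome 9, 32422204 to 32542861, minus strand), varied more. It had 112.7, 118.8, 133.6, 88.5 and 84.1 CPM in EC-TRAIL KO, against 114.0, 93.4, 138.7, 79.1 and 102.6 CPM in controls. Replicate 3 was highest in both groups, with 107.5 ± 20.9 CPM on average in EC-TRAIL KO and 105.6 ± 22.5 CPM in controls (SD, n = 5 each). The log2 fold change was 0.03 (95% interval -0.32 to 0.37), and its sign turned when control replicate 2 or 4, or EC-TRAIL KO replicate 2 or 3, was left out.

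Ets1 (chromosome 9, 32636221 to 32757820, plus strand) had 662.6, 702.3, 501.0, 454.1 and 434.1 CPM in EC-TRAIL KO, against 631.9, 566.3, 535.1, 460.4 and 509.9 CPM in controls. The libraries labelled EC-TRAIL KO lay both above and below all controls, and the log2 fold change was 0.03 (SE 0.142, 95% interval -0.28 to 0.34). Elk3 (chromosome 10, 93247414 to 93311135, minus strand), a ternary complex factor that works with serum response factor, had 445.3, 460.3, 335.9, 371.2 and 315.8 CPM in EC-TRAIL KO. Controls had 428.8, 385.3, 333.4, 389.6 and 336.2 CPM. Replicates 1 and 2 were the high libraries of the EC-TRAIL KO group, and the log2 fold change was 0.04 (95% interval -0.21 to 0.29). The signs of Ets1 and Elk3 turned with limma-voom quality weights and without EC-TRAIL KO replicate 1 or 2, and that of Ets1 also without control replicate 4.

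Etv6 (chromosome 6, 134035700 to 134270158, plus strand) had the largest log2 fold change of the 10, 0.16 (SE 0.174, 95% interval -0.22 to 0.54), and it too missed the threshold. It had 117.0, 140.2, 95.2, 129.0 and 75.3 CPM in EC-TRAIL KO, against 121.3, 94.4, 89.9, 118.6 and 73.9 CPM in controls. Replicate 5 was the lowest library of both groups. For Etv6 the log2 fold change was 0.06 without EC-TRAIL KO replicate 2, 0.07 without control replicate 5 and 0.27 without EC-TRAIL KO replicate 5. Its place as the largest of the 10 was not kept in every setting. Without EC-TRAIL KO replicate 4 Etv6 was at 0.10 and Sox18 at 0.24, and without control replicate 3 Etv6 was at 0.12 and Mef2c at 0.15. The interval reaches a fold of 1.45, so a difference of up to that size lies within the error of these libraries. Exons of Elk3 overlap those of Cdk17 on the opposite strand over 316 bases, and exons of Etv6 overlap the antisense gene Gm17089 over 135 bases. The kit marks strand, but the strand setting of the counting is not given in the sources used here, so reads from these bases could have been assigned to either gene.

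Tal1 (chromosome 4, 115056426 to 115071755, plus strand) had 86.4, 70.7, 74.4, 54.0 and 65.8 CPM in EC-TRAIL KO, against 88.9, 65.4, 74.2, 65.6 and 69.5 CPM in controls. Replicate 1 was highest in both groups, EC-TRAIL KO replicate 4 was lowest of all, and the log2 fold change was -0.05 (95% interval -0.32 to 0.21). Gata2 (chromosome 6, 88193891 to 88207032, plus strand) had 680.8, 599.2, 673.1, 568.8 and 853.5 CPM in EC-TRAIL KO, against 728.7, 585.9, 769.3, 762.5 and 765.4 CPM in controls. In the libraries labelled EC-TRAIL KO 4 of 5 lay below 4 of the 5 controls, while replicate 5 lay above them all and control replicate 2 was low. The log2 fold change was -0.10 (SE 0.116, 95% interval -0.35 to 0.15), negative in each of the 20 alternatives (-0.20 to -0.04) and past the threshold in none.

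Sox18 (chromosome 2, 181669836 to 181671640, minus strand) and Sox7 (chromosome 14, 63943673 to 63950732, plus strand) were the most variable of the 10. Sox18 had 379.9, 269.4, 212.3, 104.4 and 215.8 CPM in EC-TRAIL KO, against 315.6, 227.4, 210.0, 163.3 and 224.0 CPM in controls. Replicate 1 was the highest and replicate 4 the lowest library of both groups. Within EC-TRAIL KO the highest library was 3.64-fold above the lowest, and within controls 1.93-fold. The log2 fold change was 0.05 (SE 0.272) with a 95% interval of -0.54 to 0.64, the widest of the 10, which spans a fold of 0.688 to 1.56. It was -0.19 without EC-TRAIL KO replicate 1 and 0.24 without EC-TRAIL KO replicate 4, and passed in neither. Sox7 had 371.3, 279.0, 258.4, 163.3 and 230.5 CPM in EC-TRAIL KO, against 346.5, 265.9, 266.3, 203.9 and 281.3 CPM in controls. Again replicate 1 was highest and replicate 4 lowest in both groups, and the log2 fold change was -0.07 (95% interval -0.48 to 0.35). Of all tested genes, 86.1% had a smaller SD of log2 CPM than Sox18 and 69.4% a smaller SD than Sox7.

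Mef2c (chromosome 13, 83504034 to 83667080, plus strand) had 65.0, 92.0, 73.5, 69.8 and 51.8 CPM in EC-TRAIL KO, against 66.4, 58.5, 72.7, 70.0 and 58.5 CPM in controls. EC-TRAIL KO replicates 2 and 3 were above and replicate 5 below every control. The log2 fold change was 0.11 (SE 0.129, 95% interval -0.17 to 0.39), and it was -0.0038 without EC-TRAIL KO replicate 2. In 8 of the 10 genes, all but Erg and Fli1, the SD of log2 CPM was larger within EC-TRAIL KO than within controls, a comparison of spreads that was not tested. The share over all tested genes was not counted. All 10 genes were measured in the same libraries, so the 8 are not separate observations, and no trait of these factors is read from them.

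**Figure D2:**
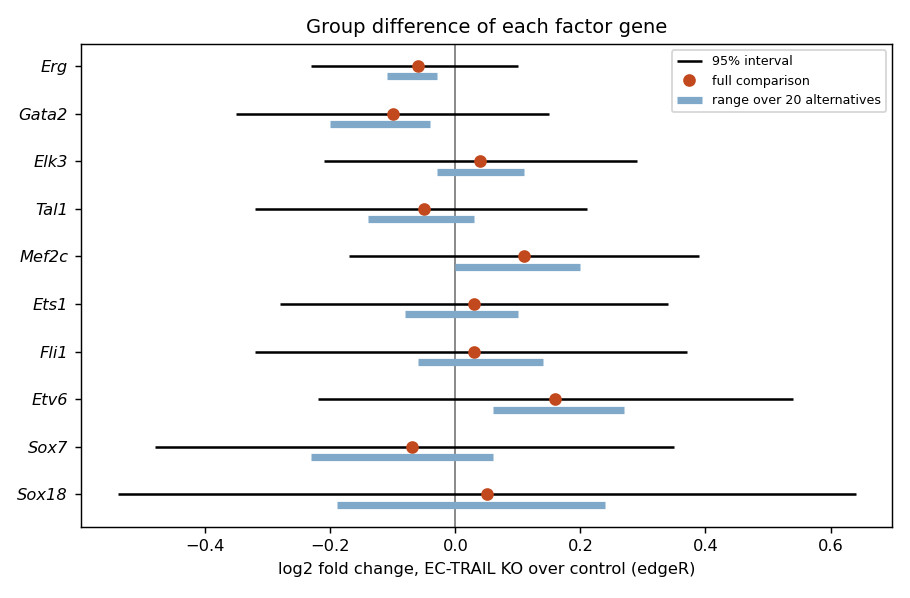
Log2 fold change of EC-TRAIL KO over control for each factor gene (dots, edgeR), its 95% interval (black) and the range over 20 alternative settings (blue). Every interval contains 0, from the narrowest, Erg (-0.23 to 0.10), to the widest, Sox18 (-0.54 to 0.64).

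Levels were compared between genes as CPM per kilobase of annotated exon. On this scale Sox18 had 146 ± 61.8 in EC-TRAIL KO and 141 ± 34.1 in controls, and Gata2 125 ± 20.5 in EC-TRAIL KO and 134 ± 14.4 in controls (SD, n = 5 each), with overlapping ranges over the 10 libraries. Below them followed Elk3 (84.8 ± 14.2 in EC-TRAIL KO, 82.3 ± 8.82 in controls), Sox7 (79.0 ± 23.0 in EC-TRAIL KO, 82.7 ± 15.4 in controls), Ets1 (65.0 ± 14.6 in EC-TRAIL KO, 63.8 ± 7.55 in controls) and Erg (60.5 ± 3.94 in EC-TRAIL KO, 63.2 ± 5.51 in controls). Each of these 4 overlapped its neighbour, and against Gata2, which ran from 105.4 to 158.1, the range of Elk3 reached up to 101.2 and that of Sox7 up to 112.6. Sox18 ran from 64.4 to 234.5, a range that overlapped those of all 4, so only its mean stood above theirs. Fli1 came next at 30.8 ± 5.99 CPM per kilobase in EC-TRAIL KO and 30.3 ± 6.46 in controls, below the range of Erg. Etv6 was at 18.6 ± 4.37 in EC-TRAIL KO and 16.6 ± 3.35 in controls, and Tal1, whose range overlapped that of Etv6, at 16.0 ± 2.71 in EC-TRAIL KO and 16.6 ± 2.23 in controls. Mef2c was lowest at 4.48 ± 0.928 in EC-TRAIL KO and 4.15 ± 0.414 in controls. The order depends on the length used: over the longest coding transcript Gata2 (196 ± 26.2 over the 10 libraries) stood above Sox18 (143 ± 47.1), Ets1 was at 107 ± 18.3, and Mef2c, whose exons sum to 15715 bases but whose longest coding transcript has 6277, was at 10.8 ± 1.75 with a range that overlapped Tal1.

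**Figure D3:**
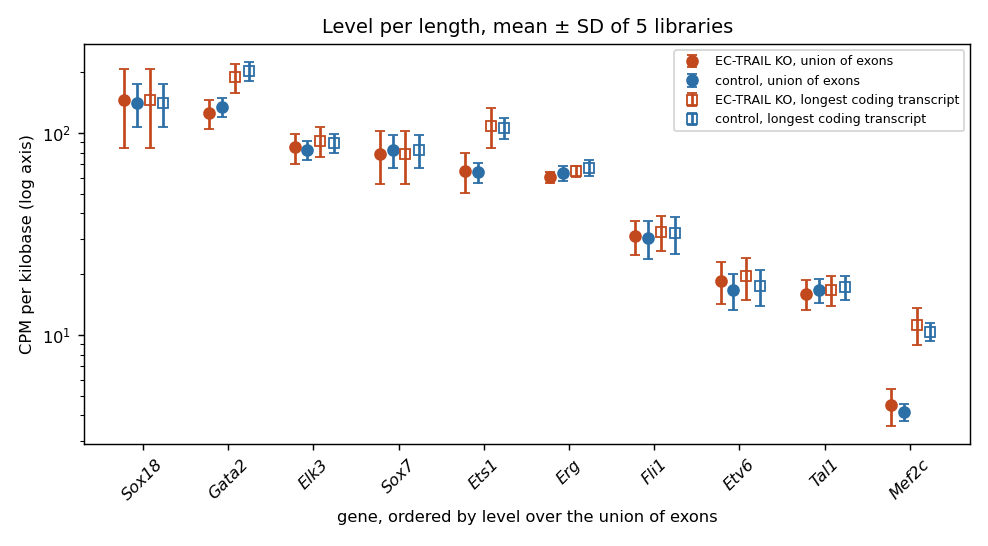
CPM per kilobase of each factor gene on a log axis, as the mean ± SD of 5 libraries per group, over the union of annotated exons (filled circles) and over the longest coding transcript (open squares). The means of Sox18 and Gata2 stand highest on both length scales, although the range of Sox18 overlaps those of Elk3, Sox7, Ets1 and Erg. Mef2c has the lowest mean, at 4.48 against 11.2 CPM per kilobase in EC-TRAIL KO on the 2 scales.

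Between libraries several of the factors varied together, in libraries of both groups. Over all 45 pairs of the 10 genes, a set examined after their values were seen, 7 had an adjusted p under 0.05 for Pearson's r of log2 CPM over the 10 libraries (two-sided permutation test, 100000 permutations), and 0 had one for Spearman's rho, whose smallest adjusted p was 0.0999. The share among pairs of all tested genes was not counted, so the 7 are not read as a trait of these factors. The closest pair was Sox7 with Sox18 (r = 0.97, permutation p = 7e-05, adjusted 0.00315; rho = 0.87, permutation p = 0.00222, adjusted 0.0999). Without EC-TRAIL KO replicates 1 and 4, the libraries farthest from the median of Sox7, r was 0.92. Tal1 varied with both of them. With Sox7 its r was 0.93 (permutation p = 0.00035, adjusted 0.00787) and its rho 0.76 (permutation p = 0.0152, adjusted 0.153). With Sox18 its r was 0.89 (permutation p = 0.00125, adjusted 0.0187) and its rho 0.60 (permutation p = 0.0728, adjusted 0.311). Without EC-TRAIL KO replicate 4 and control replicate 1, the libraries farthest from the median of Tal1, these r were 0.83 with Sox7 and 0.77 with Sox18. Elk3 and Etv6 had r = 0.83 (permutation p = 0.00421, adjusted 0.0427) and rho = 0.73 (permutation p = 0.0200, adjusted 0.153), and r = 0.70 without EC-TRAIL KO replicates 2 and 5. The 3 further pairs joined Ets1 to Elk3, Sox7 and Sox18, each with an adjusted permutation p = 0.0427 for r. Ets1 with Elk3 had r = 0.80 (permutation p = 0.00664) and rho = 0.73 (permutation p = 0.0204, adjusted 0.153), and r = 0.57 without EC-TRAIL KO replicates 1 and 2, so this relation rested in part on those libraries. Without the same libraries r was 0.82 for Ets1 with Sox7 (r = 0.78 and rho = 0.82 over all 10, permutation p = 0.00639 and 0.00619). It was 0.70 for Ets1 with Sox18 (r = 0.77 and rho = 0.79 over all 10, permutation p = 0.00584 and 0.0083). Erg, Fli1, Gata2 and Mef2c were in none of the 7 pairs. Gata2 had r between -0.61 (with Etv6) and 0.38 (with Erg). Erg, whose SD of log2 CPM was only 0.111, had r between -0.05 and 0.38 with the other 9 genes. All points of such a pair share the library they come from, and with it its depth and cell composition. The permutations treated the 10 libraries as exchangeable. Same-numbered libraries of the groups, however, had deviations from their group means that correlated at 0.0182 to 0.679. If replicate numbers mark shared conditions, the points are not independent and these permutation p-values are too small.

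**Figure D4:**
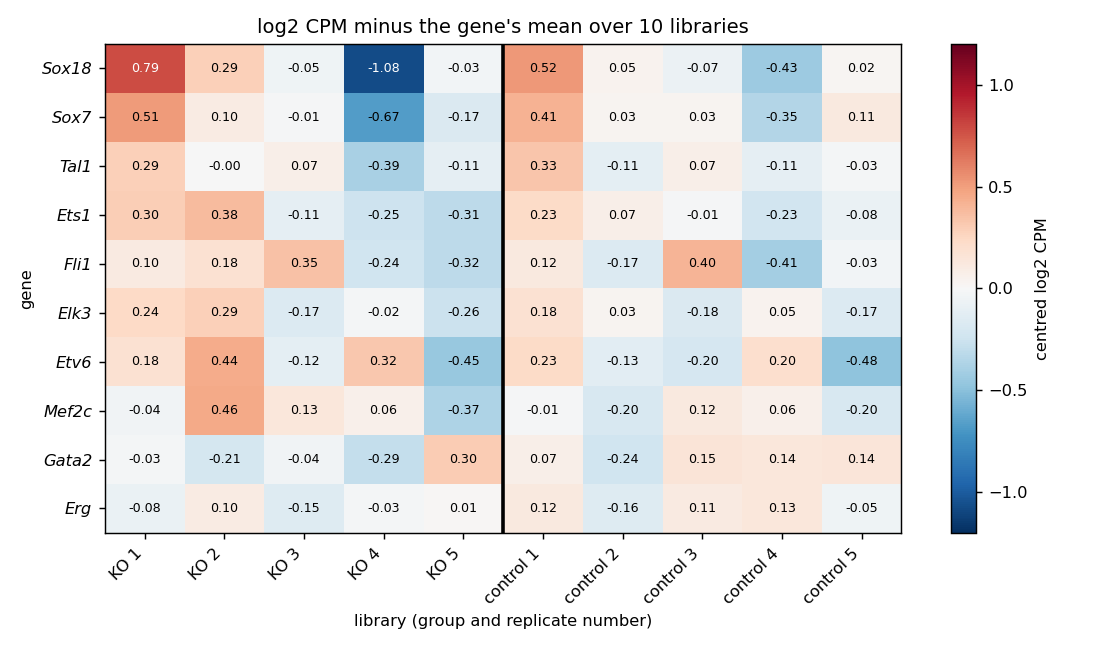
Log2 CPM of each factor gene minus its own mean over the 10 libraries, with the libraries labelled EC-TRAIL KO (KO 1 to KO 5) left of the controls. Sox18 and Sox7 are highest in replicate 1 and lowest in replicate 4 of both groups (Sox18 at 0.79 and -1.08 in EC-TRAIL KO, 0.52 and -0.43 in controls). Tal1 is highest in replicate 1 of both groups and lowest in KO 4 (-0.391), but among controls replicate 2 (-0.115) lies just below replicate 4 (-0.111). Erg stays between -0.16 and 0.13.

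**Figure D5:**
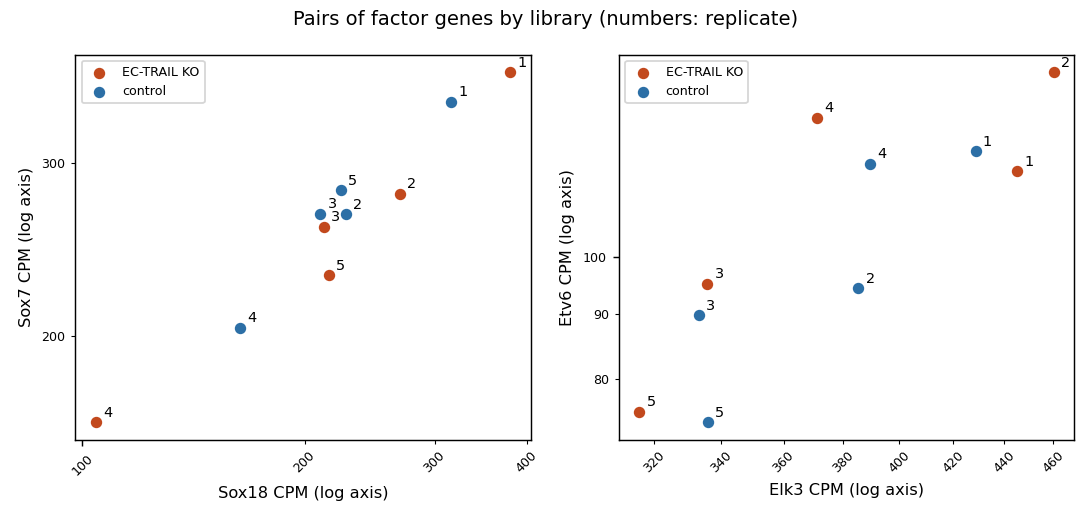
CPM of Sox7 against Sox18 and of Etv6 against Elk3 in each library, on log axes, coloured by group and numbered by replicate. Libraries of both groups lie along 1 trend in each panel, with r = 0.97 for Sox7 and Sox18 and r = 0.83 for Elk3 and Etv6.

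Endothelial marker sums were read beside the libraries at the ends of the Sox18 range. The 10 pan-endothelial markers summed to 14801 CPM in EC-TRAIL KO replicate 1 and 14075 CPM in EC-TRAIL KO replicate 4, in a range of 13012 to 14801 in EC-TRAIL KO and 12874 to 14994 in controls. Within EC-TRAIL KO the library with the most Sox18 had the highest of these sums, and the one with the least had rank 6 of 10 from the lowest. Controls went the other way. Control replicate 1, with the most Sox18 of its group, had 13725 CPM (rank 4), and control replicate 4, with the least, had 14290 CPM (rank 8). None of these markers passed, their median log2 fold change was 0.06, and the ones with the smallest p were Tek (-0.22, edgeR adjusted p = 0.764), the receptor of the angiopoietins, and Pecam1 (0.11, edgeR adjusted p = 0.997), an adhesion molecule of endothelial junctions. In bulk RNA, fewer cells of a type and less RNA per cell cannot be told apart.

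Markers of leukocytes, of mast cells and basophils, and of platelets, megakaryocytes and erythroid cells were low. The 10 leukocyte markers, 7 of which passed the filter on low counts, summed to 40.8 to 52.7 CPM in EC-TRAIL KO and 34.9 to 62.8 CPM in controls, led by the macrophage gene Cd68 (34.7 ± 2.73 in EC-TRAIL KO, 36.3 ± 5.66 in controls; SD, n = 5 each). The B cell gene Cd79a had a log2 fold change of 0.18 and the lymphocyte surface gene Cd52 0.25. Leaving out 1 library gave 0.06 (without control replicate 3) to 0.35 (without control replicate 1) for Cd79a and 0.03 (without EC-TRAIL KO replicate 2) to 0.59 (without control replicate 2) for Cd52. The 8 mast cell and basophil markers, 5 of them tested, summed to 24.2 to 39.9 CPM in EC-TRAIL KO and 26.0 to 51.5 in controls. Most of this was Hdc, histidine decarboxylase (29.7 ± 5.16 in EC-TRAIL KO, 33.1 ± 8.69 in controls), while the mast cell protease gene Cpa3 was at 0.772 ± 0.586 CPM in EC-TRAIL KO and 0.953 ± 0.721 CPM in controls. The 9 platelet, megakaryocyte and erythroid markers, 8 of them tested, summed to 16.7 to 38.2 CPM in EC-TRAIL KO and 19.5 to 54.9 in controls, with Itga2b, the platelet integrin, as the most abundant (log2 fold change -0.19), Alas2 at 0.53 and Pf4 at -0.68. EC-TRAIL KO replicate 4 had 38.2 CPM and control replicate 4 54.9 CPM of that list, the highest sum of each group, in the libraries with the lowest Sox18. None of the other lists of other cells was highest in replicate 4 of both groups. From the lowest of 10, these libraries had ranks 4 and 5 for the leukocyte list and ranks 9 and 2 for the alveolar epithelial list. No marker was at 0 in all libraries, though the mast cell gene Tpsb2 was at 0 counts in 8 of 10, and the part of these cells in the factor values was not tested.

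Alveolar epithelial markers, by contrast, summed to 6411 to 9260 CPM in EC-TRAIL KO and 7651 to 11644 CPM in controls, with Sftpc most abundant (4064 ± 472 in EC-TRAIL KO, 4377 ± 1045 in controls). All 8 had log2 fold changes below 0 (median -0.16), with Epcam at -0.22 and Lamp3 at -0.21. The 8 pericyte and smooth muscle markers summed to 344 to 591 CPM in EC-TRAIL KO and 459 to 615 in controls (median log2 fold change -0.15), with Gucy1a1, the most abundant, at -0.34 and Trpc6 at -0.29. The 8 fibroblast markers summed to 462 to 755 CPM in EC-TRAIL KO and 532 to 730 in controls (median -0.14), with Pdgfra, the most abundant, at -0.15 (-0.01 without EC-TRAIL KO replicate 2), Tcf21 at -0.25 (-0.12 without that library) and Col14a1 at -0.17. None of the markers of other cells passed (edgeR adjusted p of at least 0.957). With their mean as a covariate the log2 fold changes of the 10 factors still missed the threshold.

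Relatives of the factors were read in the same way. Of 18 further ETS genes 17 were tested, 0 rose and 0 fell, with a median log2 fold change of -0.05; Etv4 was at 0.866 ± 0.441 CPM in EC-TRAIL KO and 0.502 ± 0.203 CPM in controls (log2 fold change 0.77), and Elf5, an epithelial ETS factor, at 4.45 ± 0.583 CPM in EC-TRAIL KO and 5.56 ± 1.65 CPM in controls (-0.32; edgeR adjusted p = 0.997 for both). Elf5 was at -0.13 without control replicate 2 and Etv4 at 0.50 without EC-TRAIL KO replicate 2. Etv2, the early embryonic ETS factor of blood and vessel progenitors, had 22 counts over all 10 libraries and was not tested. Of 15 relatives in the SoxF, GATA, helix-loop-helix and MEF2 families 14 were tested, 0 rose and 0 fell (median 0.03). The smallest p among them belonged to Gata4 (0.398 ± 0.375 CPM in EC-TRAIL KO, 0.216 ± 0.0993 in controls) and Mef2b (0.298 ± 0.175 CPM in EC-TRAIL KO, 0.433 ± 0.0559 in controls), both under 1.1 CPM in every library. Gata4 had a log2 fold change of 0.90, and of 0.15 without EC-TRAIL KO replicate 4. Gata1, the erythroid and megakaryocyte GATA factor, had 92 counts over all libraries and was not tested.

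Of 14 other endothelial transcription factors 0 rose and 0 fell (median 0.03). Foxc2, a forkhead factor of lymphatic valves, had 2.32 ± 0.165 CPM in EC-TRAIL KO and 1.84 ± 0.157 CPM in controls (SD, n = 5 each), which is 0.34 ± 0.142 (SE) as log2 fold change and did not pass (edgeR adjusted p = 0.882), although the groups did not overlap, as in 1.38% of tested genes in this direction. Meox1, a homeobox factor, was at 29.6 ± 6.48 in EC-TRAIL KO and 24.7 ± 1.66 CPM in controls (0.26, and 0.15 without EC-TRAIL KO replicate 2). Among 24 endothelial genes known as targets of ETS and related factors, 0 rose and 0 fell, and 4 had an unadjusted p under 0.05 where 5.13% of all tested genes did. Their median log2 fold change was 0.06, against -0.0085 over all tested genes, and the list was chosen with earlier results known, so this share carries no test. Mmrn2, an endothelial extracellular matrix gene, was at 253 ± 63.6 CPM in EC-TRAIL KO and 187 ± 27.2 in controls (0.44, SE 0.160, edgeR adjusted p = 0.713). Nos3, endothelial nitric oxide synthase, was at 130.5 ± 17.7 in EC-TRAIL KO and 109 ± 6.30 in controls (0.26, SE 0.0915, edgeR adjusted p = 0.625). Mmrn2, Nos3 and Tek were among the 4, and Tek was lower in EC-TRAIL KO (-0.22, edgeR adjusted p = 0.764). Of the 24 genes, 14 had a log2 fold change above 0 and 10 below 0.

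For each factor the protein-coding genes with the most similar course over the 10 libraries were sought among 13966 genes, by the root mean square difference of log2 CPM after each gene was centred on its own mean. This measure is a description, does not depend on the library scaling and favours genes of equal spread. Sox18 was closest to Gata3 (0.175) and Prickle1 (0.180), a larger distance than for the other factors, and Sox7 was the fourth nearest gene at 0.183. Gata3 had 16.9 to 47.1 CPM in EC-TRAIL KO and 22.2 to 39.6 CPM in controls. Sox7 was closest to Ifi206 (0.0824) and Acvr1b (0.0946), with Tal1 78th and Sox18 174th. Tal1 was closest to Lfng (0.0753), which encodes a glycosyltransferase acting on Notch receptors, and Nynrin (0.0794). From Tal1, Sox7 was only the 1019th nearest gene and Sox18 the 9378th. Ets1 was closest to Sox11 (0.0587) and Lbh (0.0751), Elk3 to Fmnl3 (0.0641) and Hid1 (0.0662), and Etv6 to Plekhg1 (0.0831) and Nfkb2 (0.0928), an NF-kB subunit gene. From Elk3, Ets1 was the 372nd nearest gene and Etv6 the 2180th, while from Etv6 Elk3 was the 116th. On this measure many genes outside the 10 thus lay nearer to a factor than its correlated partner did. Gata2 was closest to Myzap (0.0491) and Dnaja1 (0.0659), Fli1 to Gon7 (0.0784) and Nostrin (0.0992), Mef2c to Filip1 (0.0820) and Arhgap18 (0.0831), and Erg to Ehd4 (0.0569) and Pde8a (0.0601). For Erg this distance compares with its own SD of 0.111 log2 CPM, and for Sox18 with an SD of 0.509.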

How the data were processed

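The submitters' processing notes name STAR 2.7.1a, RSEM 1.2.28 and GRCm38 as tools and build. They name no annotation release and no strand setting. The authors deposited unnormalized expected counts, of which 81.2% are whole numbers. Of 55385 identifiers, 55144 matched GENCODE M21 (GRCm38), which gave symbols, positions and exon lengths. Expected counts were rounded. The test was edgeR's (4.0.16, in R 4.3.3) quasi-likelihood F-test with default settings after filterByExpr (minimum count 10) and TMM, comparing groups without covariates, adjusted over all 17997 tested genes at a threshold of 0.05. Depth ran from 29806083 to 56897822 counts. SE was taken as the log2 fold change divided by the square root of F, and 95% intervals used the test's degrees of freedom. Log2 CPM used a prior count of 2. The method was tested on simulated data with independent libraries and the same dispersion for every gene. That test does not cover variation shared between libraries, and its outcome is not given here. No pair of libraries agreed within sampling noise (lowest chi-square per degree of freedom 20.6).

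The factor genes, companion lists and tests were chosen with earlier results of these data known. Named genes are the 10 factors, Tnfsf10, the genes of each companion list that passed or else the 2 with the smallest p, the most abundant marker of each other cell type, and the 2 most similar genes per factor, leaving out predicted genes and Riken clones. Etv2, Gata1 and Tpsb2 were named after their values were seen. Alternatives were RLE factors, library size only, DESeq2 1.42.0, limma-voom (limma 3.58.1) with and without quality weights, 2 other low-count filters, a replicate block, a marker covariate and each library left out. The newer edgeR estimation, the second length scale and the pair correlations (scipy 1.17.1, Python 3.11.15) were added after seeing the data.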

Additional observations from a re-analysis of the deposited data

Results flagged for a closer look

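Gata2 in control replicate 2 was flagged because this library stood far from the other 4 of its group, at 585.9 CPM against 728.7 to 769.3 CPM. Its gap to the next library took up 0.779 of the range of the group, above Dixon's critical value at the 95% level. It was the 1 flag among the 20 groups of 5 libraries examined for the 10 factor genes, and a limit at that level is set so that chance flags about 1 in 20 such groups. Without this library the log2 fold change of Gata2 was -0.16 and did not pass, like those of the other alternatives (-0.20 to -0.04).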

How the results depend on the processing

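The count of 0 factor genes past the threshold held in all 20 alternatives, and the smallest adjusted p of any factor was 0.703, for Etv6. Of the 200 values of their log2 fold changes 21 turned sign, and those of Erg, Etv6 and Gata2 never did; the cause was not tested. The reversed value farthest from 0 was that of Sox18 without EC-TRAIL KO replicate 1, -0.19. With limma-voom Sox18 was at -0.03, and with quality weights Sox18 was at -0.01, Ets1 at -0.03 and Elk3 at -0.01. Leaving out each library in turn gave ranges of -0.06 to 0.14 for Fli1, -0.08 to 0.10 for Ets1, -0.03 to 0.11 for Elk3, -0.14 to 0.03 for Tal1, -0.23 to 0.06 for Sox7, -0.19 to 0.24 for Sox18 and -0.0038 to 0.20 for Mef2c. Among the markers of other cells the ranges were -0.14 to 0.02 for Cd68, -0.73 to 0.0041 for Cpa3, -1.10 to 0.04 for Pf4, -0.50 to 0.10 for Itga2b and -0.17 to 0.05 for Sftpc, and Cpa3 was at 0.17 with the marker covariate.

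Over all genes, 79 were higher and 0 lower in EC-TRAIL KO. Library size only, limma-voom and limma-voom with quality weights each called 2 higher, the marker covariate 1, DESeq2 208 higher and 3 lower, and no low-count filter 141 higher and 2 lower. Leaving out each library gave 2 to 154 higher and 0 to 1 lower: 2 without any 1 control or without EC-TRAIL KO replicate 3 or 4, 154 without EC-TRAIL KO replicate 1, and 1 lower without EC-TRAIL KO replicate 1, 2 or 3. Tnfsf10 passed without EC-TRAIL KO replicate 2 (log2 fold change -1.21, edgeR adjusted p = 0.0345); its adjusted p over all 20 settings was 0.0345 to 0.801. The depth difference kept an exact permutation p of at most 0.0317 without any 1 library (mean difference -18397109 to -12781612 counts).

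The labels do not say what a replicate number shares. Deviations of same-numbered libraries from their group means correlated at 0.0182 to 0.679, above 0.1 in 4 of 5 pairs, and 4 of 5 libraries of each group correlated best with their own number, a hint from the data and not the design. With a replicate block 146 genes were higher and 3 lower, no factor passed, and Sox18 was at -0.03 (smallest adjusted p of a factor 0.703). If numbers do mark shared conditions, the 10 points of the pair correlations are not independent.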
